A study of Xenopus tropicalis x Xenopus laevis and Xenopus laevis and Xenopus tropicalis with 8 samples.

Results

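The *zic* and *irx* genes were taken from the table of transcript abundances by symbol alone, as transcripts assigned to *X. laevis* (XL) or *X. tropicalis* (XT) whose symbol is *zic* or *irx* followed by a digit, whatever their level. Described here are 25 such transcripts among 34647. Of these, 18 were *X. laevis* transcripts (9 *zic* and 9 *irx*) and 7 were *X. tropicalis* transcripts (4 *zic* and 3 *irx*). They carry 9 symbols, *zic1*, *zic2*, *zic4*, *zic5* and *irx1* to *irx5*, and *irx4* and *irx5* were found among the *X. laevis* transcripts only. Every *X. tropicalis* symbol had a single transcript, while the *X. laevis* symbols had up to 3. The *X. laevis* genome is a doubled one that often keeps 2 copies of a gene, but the files do not say which copy a transcript comes from, and reads that 2 near-identical copies share were not counted for either. No sequence or position is given, because no genome or annotation was used here.

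Zic proteins are zinc finger transcription factors related to the Gli proteins. In frog embryos they act in the prospective neural plate, at its border and in the neural crest, and *zic2* RNA is also laid down in the egg. Irx proteins are homeodomain factors of the TALE class, the vertebrate relatives of the Iroquois proteins of *Drosophila*, and they help to set up the neural plate and to divide it into territories. The neural plate itself forms after the blastula stage measured here.

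Polyadenylated RNA of whole embryos was sequenced at 9 h post-fertilization, which the study places at stage 9, a late blastula in which the embryonic genome has just begun to be transcribed. The 4 groups were le × ts hybrids (*X. laevis* eggs, *X. tropicalis* sperm), which the study describes as viable; *X. laevis* embryos; te × ls hybrids (*X. tropicalis* eggs, *X. laevis* sperm), which it describes as dying in the late blastula; and *X. tropicalis* embryos. No mutation, transgene or drug is named for any group, and the sperm was a suspension of homogenized testis. Each group had 2 libraries, numbered 1 and 3. The submitters call the replicates biological, but the parents, clutches and number of embryos behind each library are not given in the sources used here. The p-values therefore rest on the spread between these libraries only, which the test draws in part from all transcripts.

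The values are TPM, a relative abundance that is scaled by transcript length. They sum to the same total in every library and do not give RNA per embryo. Reads shared by near-identical copies or by both species were not counted. How much each gene lost is not known, so levels of different genes or species are compared only as counted TPM. The 8 libraries summed to between 999146 and 999534 TPM. The number of reads is unknown. From the commonest ratio between low values, library 3 of le × ts was estimated to hold 0.439 times as many reads as library 1 of *X. laevis*. Library 3 of *X. tropicalis* was estimated at 0.323 times library 1 of that group. The other libraries were estimated at between 0.973 and 1.52 times the reads of library 1 of their egg species. Between 23.9% and 39.1% of the transcripts used lay at these ratios. The early zygotic genes of the blastula, 7 of the 10 listed being found among XL transcripts, summed to 274.5 TPM in library 1 and 141.6 TPM in library 3 of le × ts. Markers of the testis, a possible carry-over with the sperm, summed to 0.077 and 0 TPM among XT transcripts in le × ts hybrids and to 0.204 and 0.112 TPM among XL transcripts in te × ls hybrids, with 0 genes at 1 TPM. Blood cell markers of the sperm's species were at 0 TPM in both hybrids, and *tubb2b*, a tubulin of later neural tissue, reached at most 4.41 TPM in any library.

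Of the 25 transcripts, 20 reached 1 TPM in at least 1 library. The other 5 stayed below it in all 8 libraries: both XL transcripts of *irx4* (at most 0.231 TPM), both of *zic5* (at most 0.90 TPM) and 1 of the 2 of *zic4* (at most 0.482 TPM). The XL transcript of *irx5*, an Iroquois gene known from the mouse eye and heart, passed 1 TPM in a single library, at 1.32 TPM in *X. laevis* 1.

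*zic2*, the family member stored in the egg, was the most abundant member in every library. Its 2 XL transcripts together stood at 389.9 and 392 TPM in le × ts hybrids, against 379 and 347 TPM in *X. laevis* embryos. Its XT transcript stood at 158 and 153 TPM in te × ls hybrids, against 159.7 and 167 TPM in *X. tropicalis* embryos. The *zic2* of the egg species thus stood at 108% ± 0.450 of the *X. laevis* mean in le × ts hybrids and at 95.1% ± 2.27 of the *X. tropicalis* mean in te × ls hybrids (SD over the 2 hybrid libraries). The *zic2* of the sperm species was a small share of the total in both hybrids, but in te × ls hybrids it stood above its level in *X. tropicalis* embryos. The XT transcript had 1.35 and 0 TPM in le × ts hybrids, against 0.143 and 0.193 TPM in *X. laevis* embryos, which have no *X. tropicalis* chromosomes and so show the background of the mapping. The XL transcripts summed to 7.60 and 9.39 TPM in te × ls hybrids, against 0.187 and 0.233 TPM in *X. tropicalis* embryos. Sperm-species *zic2* made up 0.344% and 0% of all *zic2* TPM in le × ts hybrids, and 4.59% and 5.79% in te × ls hybrids.

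**Figure D1:**
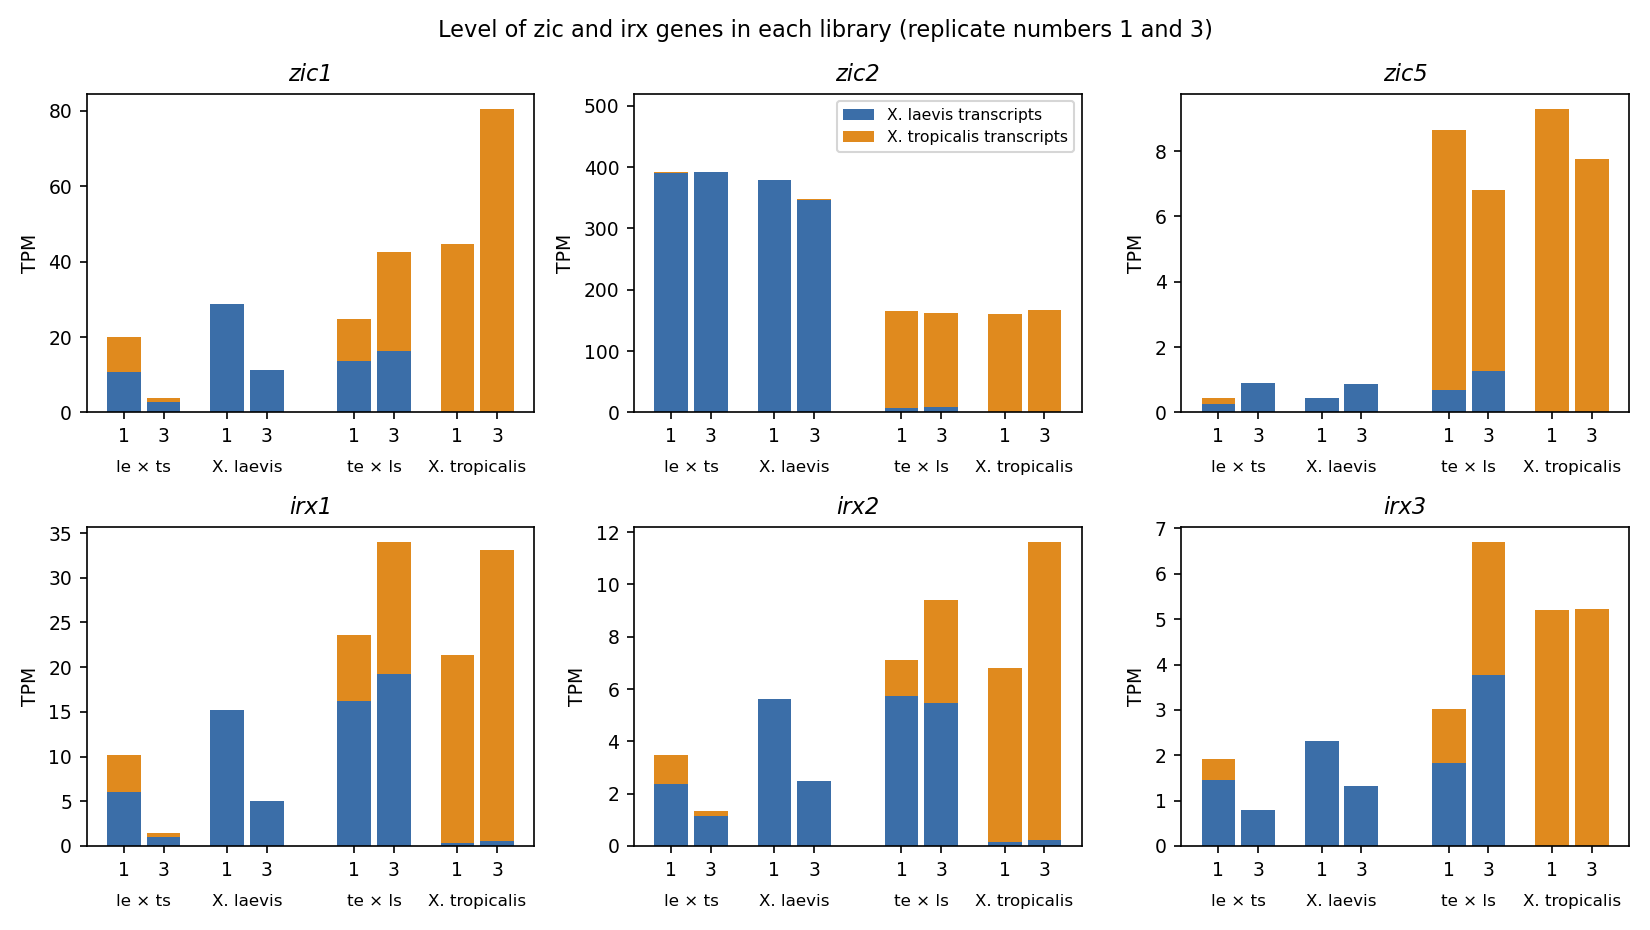
Level of 6 *zic* and *irx* genes in TPM (vertical axes, linear, each from 0) in the 8 libraries, with XL transcripts in blue and XT transcripts stacked in orange; numbers under the bars are the replicate numbers. *zic2* changes little between a hybrid and its egg species and is almost wholly of the egg species. In contrast, *zic1* and *irx1* to *irx3* hold a larger share of sperm-species transcripts in hybrids, apart from *irx3* in library 3 of le × ts, where XT is at 0 TPM. They differ widely between libraries 1 and 3 in most groups. *zic5* is mainly of the egg species in te × ls hybrids and below 1 TPM in both le × ts libraries.

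The question asked of the le × ts libraries was whether the RNAs of the egg species and of the sperm species differ from those in *X. laevis* embryos. *zic1*, a factor of the neural plate border that cooperates with Pax3 in forming neural crest, summed to 10.7 and 2.86 TPM of XL transcripts in le × ts hybrids, against 28.9 and 11.3 TPM in *X. laevis* embryos. All libraries of the hybrid lay below those of *X. laevis*, and the hybrid mean was 33.8% ± 27.6 of the *X. laevis* mean. *irx1*, which in *Xenopus* promotes the neural plate by repressing the BMP4 gene, summed to 5.99 and 0.970 TPM in le × ts hybrids, against 15.2 and 4.98 TPM in *X. laevis* embryos. Its groups overlapped, since the higher hybrid library lay above the lower *X. laevis* library. Against the *X. laevis* library of the same number, *irx1* was at 39.3% in library 1 and at 19.5% in library 3. A pairing by number was not established. *irx2*, which lies beside *irx1* in vertebrate genomes, summed to 2.35 and 1.16 TPM in le × ts hybrids, against 5.64 and 2.48 TPM in *X. laevis* embryos, which do not overlap.

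*irx3*, a gene of the neural tube and the kidney, summed to 1.46 and 0.783 TPM in le × ts hybrids, against 2.31 and 1.33 TPM in *X. laevis* embryos. Its groups overlapped. Over the 5 genes that averaged at least 1 TPM in *X. laevis* embryos, the hybrid level was between 33.8% and 108% of the *X. laevis* level, with a median of 43.3%, while the median over all 10158 such XL symbols was 101%. In libraries of whole embryos, fewer cells that hold an RNA and less of it per cell cannot be told apart.

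Differences between groups were tested with limma on log2(TPM + 1), over every transcript that reached 1 TPM in no fewer than 2 of the 4 libraries compared, and a transcript was called at an adjusted p under 0.05 and a log2 difference beyond 1. Of the 18 XL members, 7 passed this filter in the comparison of le × ts hybrids with *X. laevis* embryos. None of the 7 was called (0%, as among all 17044 XL transcripts tested, 0%), and limma gave each an adjusted p of 1. At an unadjusted p under 0.05 there were 0 of the 7 members and 49 of the 17044. The lowest unadjusted p of limma among members was 0.0754, for the most abundant *zic1* transcript (TeperekTkacz201206_000626415). That transcript had 8.56 and 2.03 TPM in le × ts hybrids, against 22.7 and 9.81 TPM in *X. laevis* embryos, a log2 difference of -1.57 (SE 0.706). The most abundant *irx1* transcript (Taira201203st10_000157158) had 4.77 and 0.839 TPM in le × ts hybrids, against 10.9 and 4.45 TPM in *X. laevis* embryos, a log2 difference of -1.31 (SE 0.719). The 2 *zic2* transcripts had log2 differences of 0.12 (SE 0.212) and 0.10 (SE 0.226).

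In all, 5 of the 7 log2 differences were below 0 and 2 above, with a median of -0.81, against 0.01 over all XL transcripts tested. The groups did not overlap for 2 members that were lower in the hybrid, the *zic1* transcript above and an *irx2* transcript (Chang2013_000733016, log2 difference -0.81, SE 0.479), where 7.85% of all XL transcripts were lower without overlap. They did not overlap for 1 *zic2* transcript that was higher in the hybrid, by 0.12, where 10.9% of all were. The values of 6 of the 7 members in le × ts hybrids and of all 7 in *X. laevis* embryos were smaller in library 3 than in library 1, and with 2 libraries against 2 an exact permutation test of a single gene cannot give a two-sided p below 0.333. Without library 3 of le × ts the median of the members was -0.40, and without library 1 of *X. laevis* it was -0.32, over the 6 members that then passed the filter. Without library 3 of *X. laevis* it was -1.40, and without library 1 of le × ts it was -1.13, over 6 members.

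**Figure D2:**
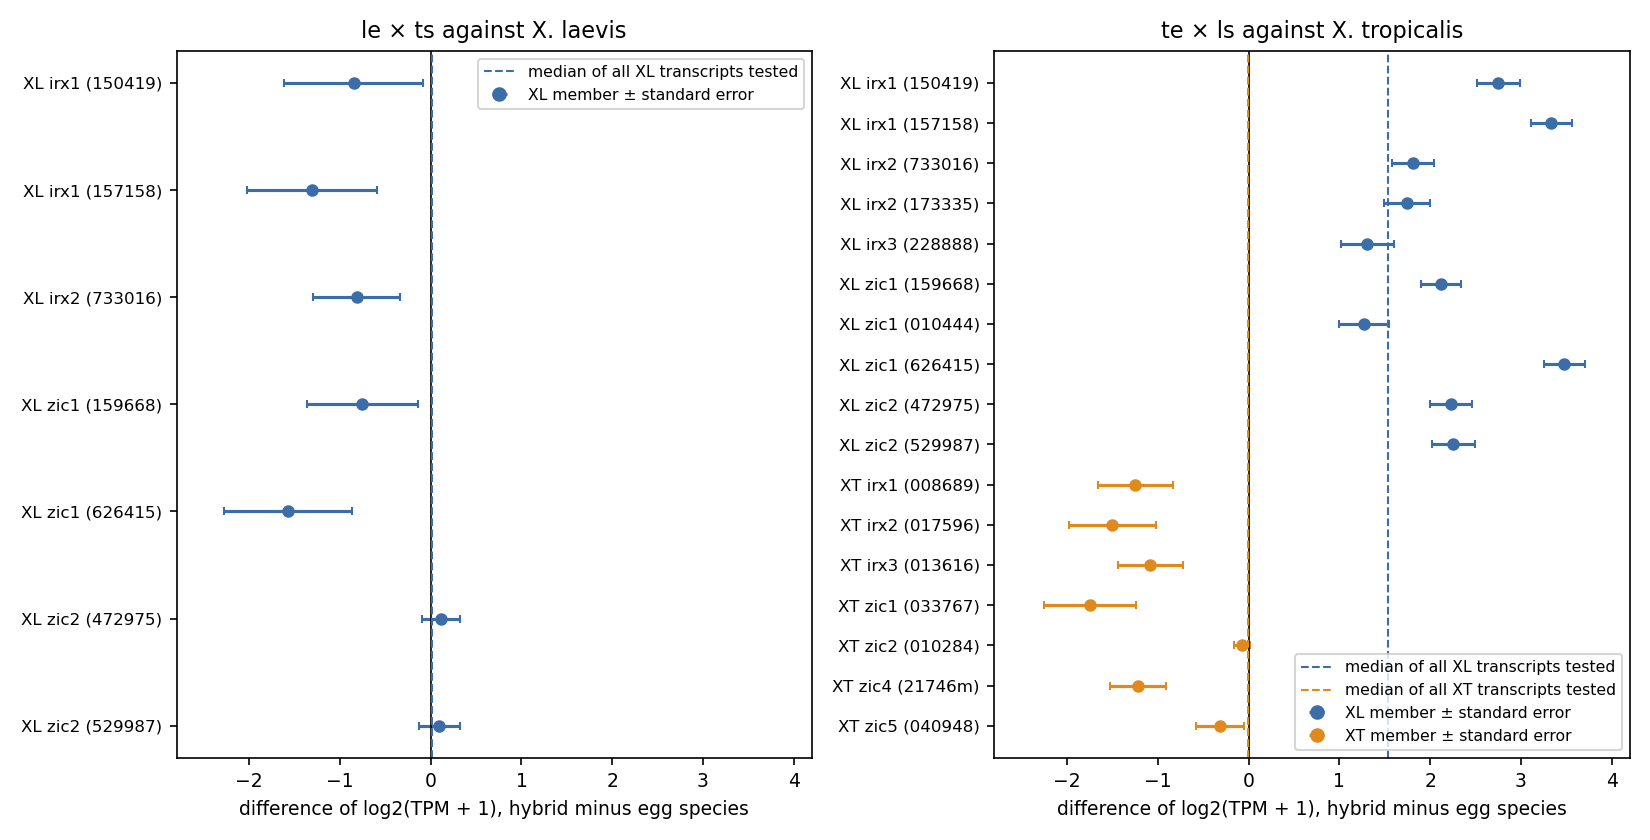
Difference of log2(TPM + 1), hybrid minus egg species (horizontal axes), for each *zic* and *irx* transcript that was tested, with its standard error as a bar; digits in brackets are the end of the transcript's identifier, blue marks XL and orange XT, and dashed lines are the medians of all transcripts tested. On the left, 5 of 7 XL members lie below 0 with bars that are wide against their distance from it; on the right, the 7 XT members lie below 0, and the 10 XL members lie above 0, where the filter alone could put them.

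The *X. tropicalis* *zic* and *irx* genes reach the le × ts embryo with the sperm alone. XT *zic1* had 9.30 and 0.972 TPM in le × ts hybrids, against 0 TPM in both *X. laevis* libraries. XT *irx1* had 4.21 and 0.443 TPM in le × ts hybrids, against 0 and 0 TPM in *X. laevis* embryos. XT *irx2* had 1.13 and 0.176 TPM in le × ts hybrids, against 0 TPM in both *X. laevis* libraries. Library 1 thus held nearly all of the signal, and in library 3 only *zic1*, *irx1* and *irx2* were above 0. The 3 remaining genes were under 0.5 TPM in both hybrid libraries: *irx3* at 0.462 and 0 TPM, *zic4*, which lies beside *zic1* in mammalian genomes, at 0.245 and 0 TPM, and *zic5*, which promotes neural crest in *Xenopus*, at 0.187 and 0 TPM.

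A transcript of the sperm species was counted as detected at 1 TPM or more in both hybrid libraries and under 1 TPM in both libraries of the egg species. By this rule 0 of the 7 XT members were detected in le × ts hybrids, where 1.28% of all 14036 XT transcripts were (179, against 3 with the groups exchanged). The count rests on library 3 of le × ts, by estimate the shallower of the pair, though the part of depth was not tested. Without that library the count was 4 of 7 (*zic1*, *irx1*, *irx2* and *zic2*), where 3.04% of all XT transcripts were detected. At 0.5 TPM it was 1 of 7, *zic1*. None of the 7 passed the filter of the test, so none was tested in this comparison.

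Against *X. tropicalis* embryos, which have both parental copies of these genes and the RNA of their own egg, the XT members stood low in le × ts hybrids. XT *zic1* was at 8.21% ± 9.41 of its mean there (44.6 and 80.5 TPM), and XT *irx1* at 8.68% ± 9.94 (21.1 and 32.5 TPM). The 7 genes ranged from 0.412% for *zic2* to 8.68% for *irx1*, with a median of 4.43%. All 7 were lower without overlap, as were 99.5% of all 10011 XT symbols at 1 TPM or more in *X. tropicalis* embryos, and the median over those symbols was 0.0961%. The values rest on which hybrid library is counted: *zic1* was at 1.55% without library 1 of le × ts and at 14.9% without library 3, and *irx1* at 1.65% and 15.7%. These percentages set shares of different RNA pools beside each other, since a le × ts library is almost wholly *X. laevis* RNA, and they were not tested.

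In te × ls hybrids, the egg species is *X. tropicalis* and the *zic* and *irx* genes of that species were compared with *X. tropicalis* embryos. XT *zic1* had 11.2 and 26.1 TPM in te × ls hybrids, against 44.6 and 80.5 TPM in *X. tropicalis* embryos. XT *irx1* had 7.36 and 14.7 TPM in te × ls hybrids, against 21.1 and 32.5 TPM in *X. tropicalis* embryos. For both genes each hybrid library lay below each *X. tropicalis* library, and the hybrid means were 29.8% ± 16.8 and 41.2% ± 19.5 of the *X. tropicalis* means.

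XT *irx2* had 1.39 and 3.94 TPM in te × ls hybrids, against 6.66 and 11.4 TPM in *X. tropicalis* embryos. XT *irx3* had 1.19 and 2.93 TPM in te × ls hybrids, against 5.21 and 5.23 TPM in *X. tropicalis* embryos. XT *zic4* had 0.772 and 1.06 TPM in te × ls hybrids, against 2.62 and 4.46 TPM in *X. tropicalis* embryos. All of these were lower without overlap. XT *zic5* differed from them, with 7.96 and 5.55 TPM in te × ls hybrids, against 9.30 and 7.77 TPM in *X. tropicalis* embryos, which overlap, and *zic2* was given above.

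All 7 XT members passed the filter in this comparison. limma called 0 of them (0%, as among all 11559 XT transcripts tested, 0%). A test that called no XT transcript cannot tell whether these 7 changed. The log2 difference was -1.74 (SE 0.505, limma adjusted p = 0.595) for *zic1* and -1.25 (SE 0.410, limma adjusted p = 0.825) for *irx1*. For *zic4*, which had the lowest adjusted p of the XT members (0.408 by limma), it was -1.22 (SE 0.306). The log2 differences of *irx2* and *irx3* were -1.50 (SE 0.479) and -1.08 (SE 0.358), while those of *zic5* and *zic2* were -0.31 (SE 0.263) and -0.07 (SE 0.0882).

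The median of the 7 was -1.22, against -0.01 over all XT transcripts tested. 6 of the 7 were lower in the hybrid without overlap, where 10.3% of all XT transcripts tested were, and 5 of the 7 (*zic1*, *zic4*, *irx1*, *irx2* and *irx3*) had an unadjusted p under 0.05 in limma and were lower, where 1.28% of all were. As shares of the *X. tropicalis* mean, the 7 genes ranged from 25.9% for *zic4* to 95.1% for *zic2*, with a median of 39.5%, while the median over all 10011 XT symbols was 98.9%. Leaving out library 3 of *X. tropicalis*, the shallower of its pair, gave a median of -0.95, and leaving out library 1 of te × ls gave -0.79. Without library 1 of *X. tropicalis* the median was -1.51, and without library 3 of te × ls it was -1.50.

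The *X. laevis* *zic* and *irx* genes enter the te × ls embryo with the sperm. XL *irx1* summed to 16.2 and 19.2 TPM in te × ls hybrids, against 0.331 and 0.513 TPM in *X. tropicalis* embryos, where its 2 transcripts had 7.74 and 9.47 TPM (Ismailoglu201203_000150419) and 8.48 and 9.78 TPM (Taira201203st10_000157158) in the hybrids. XL *zic1* summed to 13.5 and 16.4 TPM in te × ls hybrids, against 0 TPM in both *X. tropicalis* libraries. XL *irx2* summed to 5.72 and 5.45 TPM in te × ls hybrids, against 0.151 and 0.233 TPM in *X. tropicalis* embryos. The 2 hybrid libraries lay close together for these 3 genes, within 1.21-fold of each other.

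XL *irx3* summed to 1.83 and 3.77 TPM in te × ls hybrids, against 0 TPM in both *X. tropicalis* libraries. XL *zic5* summed to 0.675 and 1.28 TPM, XL *zic4* to 0.502 and 0.472 TPM and XL *irx5* to 0.506 and 0.153 TPM in te × ls hybrids, against 0 TPM for each in *X. tropicalis* embryos. XL *irx4* stood at 0.157 and 0.161 TPM in te × ls hybrids, against 0 TPM in *X. tropicalis* embryos.

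By the rule for detection given above, 10 of the 18 XL members were detected in te × ls hybrids (2 transcripts of *irx1*, 2 of *irx2*, 1 of *irx3*, 3 of *zic1* and 2 of *zic2*), or 55.6%, where 1.94% of all 20611 XL transcripts were (399, against 3 with the groups exchanged). At 5 TPM 3 of the 18 were detected, both *irx1* transcripts and the most abundant *zic1* transcript, and leaving out each library in turn gave between 10 and 11. The same 10 transcripts passed the filter of the test, but only through their level in the hybrids, so they had to differ and their differences are given as a description. They ranged from 1.27 to 3.48 on the log2 scale.

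**Figure D3:**
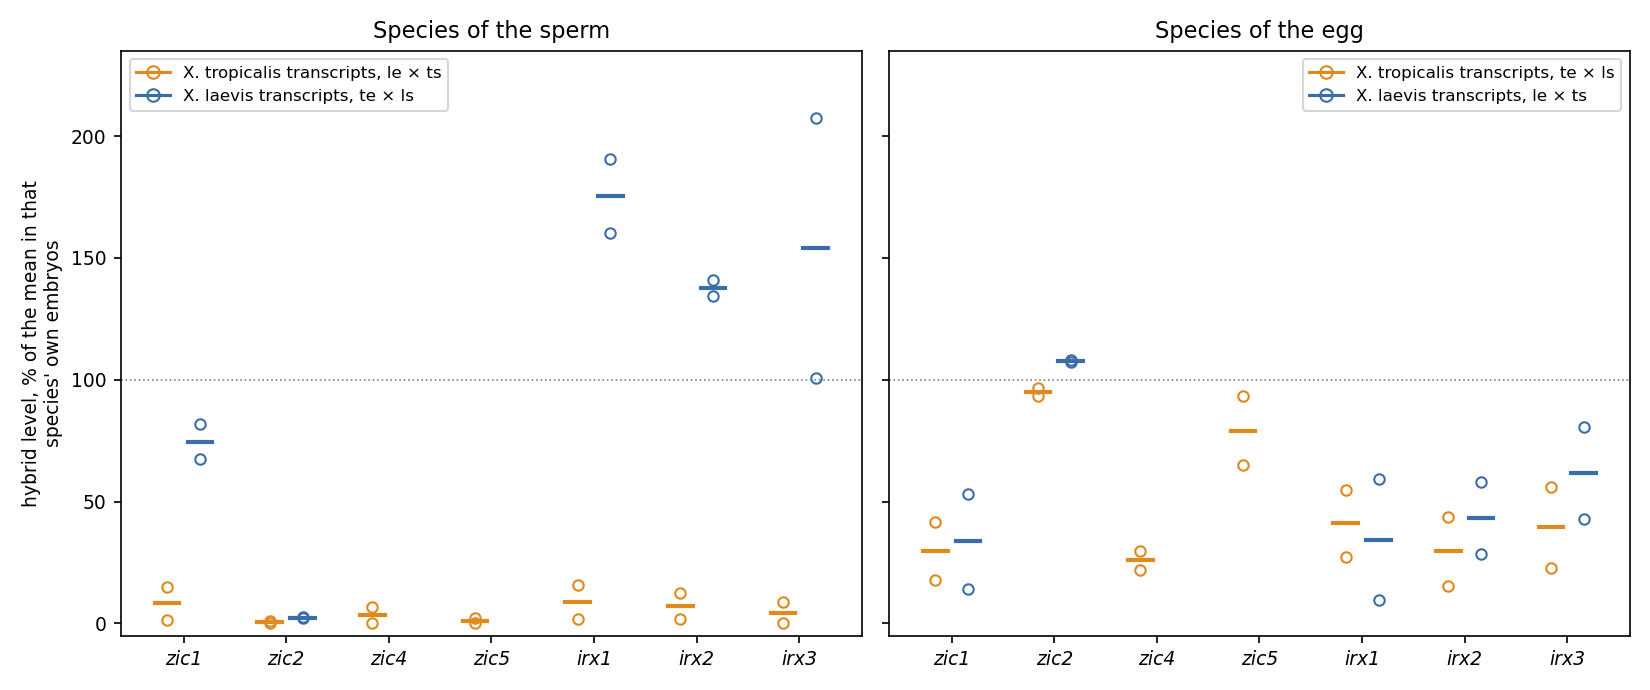
Level of each *zic* and *irx* gene in a hybrid as a percent of its mean in the embryos of the species it belongs to (vertical axis, linear; circles are the 2 hybrid libraries, lines their mean, the dotted line is 100%), for genes that averaged 1 TPM or more in those embryos. On the left, from the sperm species, XT genes in le × ts hybrids average at most 8.68%, while XL *irx1*, *irx2* and *irx3* in te × ls hybrids lie above 100% and XL *zic2* lies at 2.34%; on the right, from the egg species, *zic2* lies near 100% in both hybrids and the others, *zic5* aside, lie at 25.9% to 61.7%.

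Set beside *X. laevis* embryos, several XL genes in te × ls hybrids stood as high as in the embryos of their own species. XL *irx1* was at 175% ± 21.2 of its *X. laevis* mean, with 16.2 and 19.2 TPM in te × ls hybrids, against 15.2 and 4.98 TPM in *X. laevis* embryos, which do not overlap (0.0591% of all XL symbols were higher without overlap). XL *irx2* was at 138% ± 4.57, with 5.72 and 5.45 TPM in te × ls hybrids, against 5.64 and 2.48 TPM in *X. laevis* embryos. XL *irx3* was at 154% ± 75.4, with 1.83 and 3.77 TPM in te × ls hybrids, against 2.31 and 1.33 TPM in *X. laevis* embryos. The groups overlapped for *irx2* and *irx3*.

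XL *zic1* was at 74.6% ± 10.03, with 13.5 and 16.4 TPM in te × ls hybrids, against 28.9 and 11.3 TPM in *X. laevis* embryos. XL *zic2* was at 2.34% ± 0.348 of its *X. laevis* mean. Over the 5 genes the median was 138%, while the median over all 10158 XL symbols was 0.0522%. Of those symbols 1.17% were at 25% or more (119, with genes outside these families among them). These percentages lean on the distance between the 2 *X. laevis* libraries: without *X. laevis* 1 those of *irx1* and *zic1* were 356% and 133%, and without *X. laevis* 3 they were 116% and 51.8%. Likewise *irx2* was at 225% without *X. laevis* 1 and at 99.1% without *X. laevis* 3, and *irx3* was at 101% without library 3 of te × ls. As in the other cross, the 2 groups are shares of different RNA pools, the exact permutation test allows no two-sided p below 0.333, and the differences were not tested further.

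Both crosses can be read together as the share of a gene's TPM that came from the sperm species, within a library. For *zic1* it was 46.5% and 25.4% in le × ts hybrids, and 54.7% and 38.6% in te × ls hybrids. For *irx1* it was 41.3% and 31.4% in le × ts hybrids, and 68.8% and 56.6% in te × ls hybrids. For *irx2* it was 32.4% and 13.2% in le × ts hybrids, and 80.5% and 58.0% in te × ls hybrids. In each of these 3 genes the share was lower in library 3 than in library 1 of both crosses. The whole transcriptome was divided otherwise, with 0.678% and 1.02% of TPM assigned to *X. tropicalis* in le × ts hybrids and 0.355% and 0.429% to *X. laevis* in te × ls hybrids. Part of this is the background of the mapping. *X. laevis* embryos had 0.293% and 0.332% of TPM assigned to *X. tropicalis*. *X. tropicalis* embryos had 0.124% and 0.230% assigned to *X. laevis*. All these shares rest on counted reads only, and how many reads each species lost is not known.

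Summed over both species, *zic1* stood at 19.996 and 3.83 TPM in le × ts hybrids, against 28.9 and 11.3 TPM in *X. laevis* embryos, and at 24.8 and 42.5 TPM in te × ls hybrids, against 44.6 and 80.5 TPM in *X. tropicalis* embryos. By group mean the order was *X. tropicalis* (62.6 ± 25.4 TPM), te × ls (33.6 ± 12.5), *X. laevis* (20.1 ± 12.4) and le × ts (11.9 ± 11.4; SD, n = 2 each). Of the neighbours in this order, te × ls and *X. laevis* overlapped, as did *X. laevis* and le × ts. The *irx1* sum stood at 10.2 and 1.41 TPM in le × ts hybrids, against 15.2 and 4.98 TPM in *X. laevis* embryos, and at 23.6 and 34.0 TPM in te × ls hybrids, against 21.4 and 33.1 TPM in *X. tropicalis* embryos. Its order was te × ls (28.8 ± 7.36 TPM), *X. tropicalis* (27.2 ± 8.23), *X. laevis* (10.1 ± 7.26) and le × ts (5.81 ± 6.22), and only *X. tropicalis* and *X. laevis* among the neighbours did not overlap. The *irx1* of te × ls hybrids therefore reached the *X. tropicalis* level with both species counted, while its XT transcript alone did not. Both orders set *X. laevis* and *X. tropicalis* transcripts side by side, and the reads lost from each are not known.

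Within the groups, *zic* and *irx* transcripts moved together between library numbers. Among XL members at 1 TPM or more in at least 1 library of a pair, 6 of 7 in le × ts hybrids and 12 of 12 in *X. laevis* embryos were higher in library 1, against 58.6% and 54.7% of all XL transcripts at that level. All 4 such XT members of le × ts hybrids were higher in library 1 as well (61.6% of all). With *X. tropicalis* eggs the direction was the opposite. In te × ls hybrids 1 of 11 XL members was higher in library 1, against 31.7% of all XL transcripts, most of which were thus not higher there either. Of the XT members, 2 of 7 in te × ls hybrids and 1 of 7 in *X. tropicalis* embryos were higher in library 1, against 54.8% and 54.0% of all. Among genes above 0 TPM in both libraries of a pair, with at least 1 TPM in 1 of them, the widest gaps were those of XT *zic1* and XT *irx1* in le × ts hybrids, 9.57-fold and 9.51-fold. For XL *zic2* in le × ts hybrids the gap was 1.01-fold.

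As sums, the early zygotic genes of the blastula moved the same way as *zic1* and *irx1*. Their XL transcripts summed to 274.5 TPM in library 1 and 141.6 TPM in library 3 of le × ts hybrids, against 566 and 386 TPM in *X. laevis* embryos. Their XT transcripts summed to 583 and 865 TPM in te × ls hybrids, against 868 and 1391 TPM in *X. tropicalis* embryos. Much of these XT sums was *hes7*, with 456 and 503 TPM in te × ls hybrids and 510 and 597 TPM in *X. tropicalis* embryos. Single genes of the list did not all follow the sums. XL *mix1* was higher in library 3, with 5.33 and 14.0 TPM in le × ts hybrids and 5.51 and 11.7 TPM in *X. laevis* embryos. XT *sia2* also rose in le × ts hybrids, from 16.1 to 20.7 TPM. The list of egg RNAs stood at 7019 and 5945 TPM of XL transcripts in le × ts hybrids, against 7429 and 7591 TPM in *X. laevis* embryos, and at 8684 and 8015 TPM of XT transcripts in te × ls hybrids, against 8666 and 7760 TPM in *X. tropicalis* embryos. Much of these sums was *ccnb1*, with 3728 and 2784 TPM of XL transcripts in le × ts hybrids and 6995 and 6469 TPM of XT transcripts in te × ls hybrids. Single egg RNAs went both ways between the le × ts libraries. XL *nanos1* had 169 and 388 TPM there, and XL *dazl* had 195 and 89.9 TPM. Of the early zygotic list, *hes7*, *mix1*, *ventx2*, *foxi4* and *sia2* are among the factors the study chose on these libraries. Their XT level in le × ts hybrids is not independent of that choice. The part of the zygotic genes' level in the *zic* and *irx* differences was not tested.

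**Figure D4:**
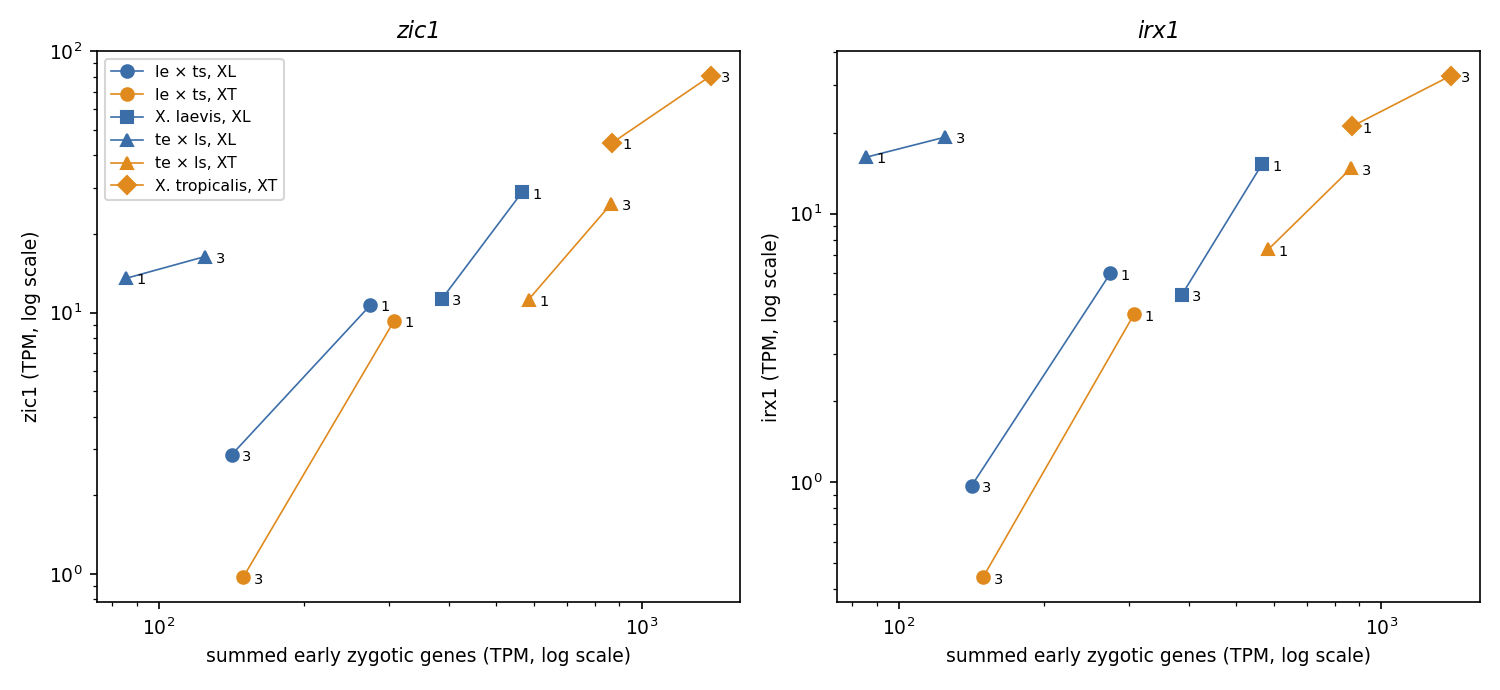
Level of *zic1* (left) and *irx1* (right) in TPM against the summed TPM of the listed early zygotic genes of the same species (7 found for XL, 10 for XT), both on log axes. Each line joins libraries 1 and 3 of a group, colour gives the species of the transcripts and shape the group. Within each group both genes are higher in the library with the larger early zygotic sum. The XL transcripts of te × ls hybrids (blue triangles) lie far to the left of the *X. laevis* libraries. Their *zic1* lies between the *X. laevis* libraries and their *irx1* above both.

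The genes most like the members over the 8 libraries were found by the Pearson correlation of log2(TPM + 1) with every symbol of the same species at 1 TPM or more in at least 2 libraries, as a description in which all points share the libraries and the 2 species set most of the range. XT *zic1* was most like XT *irx1* (r = 0.997), *lefty* and *sox2*, and XT *irx1* was most like *fam110c*, *zic1* and *dusp6*. XL *irx1* was most like *irx2* (r = 0.983), *hes5* and *eomes*, and XL *zic1* was most like *admp* (r = 0.992), *tfap2a* and *sp5l*. XL *irx2* was most like *fzd10*, *cldn5* and *hand2*, and XL *irx3* like *fzd8*, *hes5* and *znf750*. Of these, *admp*, a BMP-like signal of the organizer, had 11.6 and 3.63 TPM in le × ts hybrids, against 22.1 and 15.2 TPM in *X. laevis* embryos, and 13.4 and 14.6 TPM in te × ls hybrids, against 0 TPM in *X. tropicalis* embryos. In te × ls hybrids XL *hes5* had 7.85 and 13.7 TPM, against 9.08 and 2.29 TPM in *X. laevis* embryos. XL *eomes* had 3.36 and 6.23 TPM there, against 4.53 and 0.883 TPM in *X. laevis* embryos. XL *tfap2a* had 6.89 and 8.64 TPM there, against 17.3 and 8.49 TPM in *X. laevis* embryos. A level like that of *X. laevis* embryos was thus not particular to the members, although these genes were picked by their likeness. *zic2* had other neighbours. XL *zic2* was most like *srsf2*, a splicing factor, and *mex3b* and *hist2h3d*, and XT *zic2* was most like *prickle1*, *fam60a* and *hdgf*. XT *irx2* was most like *phox2a*, *bcl2l10* and *hoxc13*, and XT *irx3* like *ccdc92*, *hoxc13* and *sox1*. XT *zic4* was most like *foxb1*, *bhlhe22* and *sp9*, and XT *zic5* like *mmd*, *lyst* and *meis3*.

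Lists of related genes were set beside the members, and limma called 0 transcripts of any list in either comparison. It also called 0 over the whole table, so it cannot tell whether a listed gene changed. The study's own edgeR test did find *X. tropicalis* genes significantly more abundant in le × ts hybrids than in *X. laevis* embryos. Among the transcription factors it chose from them were *klf17*, *id3*, *foxi4*, *sox3* and *tgif2*. For every list below, these shares over the whole table stand beside the counts. In le × ts hybrids 7.85% of XL transcripts were lower and 10.9% higher without overlap. In te × ls hybrids 10.3% of XT transcripts were lower. The share higher, 6.76%, is over XT symbols at 1 TPM or more in *X. tropicalis* embryos, not over transcripts tested. Detected from the sperm species were 1.28% of XT transcripts in le × ts hybrids and 1.94% of XL transcripts in te × ls hybrids, tested or not. Among the neural inducers and secreted antagonists, 4 of 10 XL transcripts tested were lower without overlap in le × ts hybrids than in *X. laevis* embryos and 0 were higher (median log2 difference -0.67). In te × ls hybrids 5 of the 7 XT transcripts tested were lower without overlap than in *X. tropicalis* embryos and 1 was higher (median -1.12). From the sperm species, 4 of 8 XT transcripts of this list were detected in le × ts hybrids and 5 of 17 XL transcripts in te × ls hybrids. *nog*, the BMP antagonist Noggin, had 5.28 and 3.05 TPM of XT transcript in le × ts hybrids, against 0 TPM in *X. laevis* embryos. Its most abundant XL transcript had 3.52 and 4.16 TPM in te × ls hybrids, against 0.104 and 0.321 TPM in *X. tropicalis* embryos. The other genes named by the rule in this list were *nodal3* (14.7 and 7.56 TPM of XT transcript in le × ts hybrids, against 0 TPM in *X. laevis* embryos), *bambi*, a decoy receptor for BMP, and *dkk1*, a Wnt antagonist. *bambi* had 5.95 and 2.80 TPM of XT transcript in le × ts hybrids, against 0.83 and 0.488 TPM in *X. laevis* embryos, and *dkk1* had 2.15 and 2.06 TPM of XT transcript in le × ts hybrids, against 0 TPM in *X. laevis* embryos.

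Among the early neural transcription factors, 7 of 23 XL transcripts tested were lower and 4 higher without overlap in le × ts hybrids than in *X. laevis* embryos (median -0.27), and 6 of 11 XT transcripts tested were lower and 0 higher in te × ls hybrids than in *X. tropicalis* embryos (median -0.90). Detected from the sperm species were 3 of 14 XT transcripts in le × ts hybrids and 14 of 29 XL transcripts in te × ls hybrids. *sox2*, a factor of neural progenitors, had 10.025 and 1.41 TPM of XT transcript in le × ts hybrids, against 0 TPM in *X. laevis* embryos. *foxd4l1*, which keeps neural plate cells immature, had 6.37 and 1.59 TPM of XT transcript in le × ts hybrids, against 0 TPM in *X. laevis* embryos. *hes5*, a target of Notch signalling, had 4.67 and 8.80 TPM of an XL transcript in te × ls hybrids, against 0 TPM in *X. tropicalis* embryos. *sox3* and *sox11* stood far higher in their egg species: the XT transcript of *sox3* had 1519 and 1680 TPM in te × ls hybrids, against 1548 and 1672 TPM in *X. tropicalis* embryos, and 45.2 and 27.4 TPM in le × ts hybrids, against 1.80 and 2.18 TPM in *X. laevis* embryos. The XT transcript of *sox11* had 208 and 217 TPM in te × ls hybrids, against 220.1 and 265 TPM in *X. tropicalis* embryos, and 5.64 and 1.01 TPM in le × ts hybrids, against 0.091 and 0.081 TPM in *X. laevis* embryos.

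Among genes of the neural plate border and non-neural ectoderm, 7 of 24 XL transcripts tested were lower and 2 higher without overlap in le × ts hybrids than in *X. laevis* embryos (median -0.83), and 6 of 13 XT transcripts tested were lower and 0 higher in te × ls hybrids than in *X. tropicalis* embryos (median -0.77). Detected from the sperm species were 7 of 16 XT transcripts in le × ts hybrids and 9 of 36 XL transcripts in te × ls hybrids. *tfap2a*, a factor of the border and the neural crest, had 5.46 and 5.18 TPM of an XL transcript in te × ls hybrids, against 0.078 and 0 TPM in *X. tropicalis* embryos. *hes4*, a Hairy factor of the border, had 11.2 and 4.44 TPM of XT transcript in le × ts hybrids, against 0 and 0.118 TPM in *X. laevis* embryos, and 6.93 and 8.03 TPM of an XL transcript in te × ls hybrids, against 0 TPM in *X. tropicalis* embryos. The other genes named by the rule, *klf17*, *id3* and *foxi4*, are, with *sox3* and *tgif2*, among those the study chose on these libraries, so their direction in le × ts hybrids is not independent of that choice. XT *klf17* had 83.7 and 33.6 TPM in le × ts hybrids, against 0.096 and 0.085 TPM in *X. laevis* embryos. XT *id3* had 65.8 and 17.6 TPM, and XT *foxi4* had 52.6 and 21.8 TPM, in le × ts hybrids, against 0 TPM for both in *X. laevis* embryos.

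Of the Gli and Glis genes, 1 XL transcript was tested against *X. laevis* embryos and overlapped between groups, and 2 of 4 XT transcripts tested, of *glis2* and *gli3*, were lower without overlap in te × ls hybrids (median -0.25). *gli1*, a transcription factor of Hedgehog signalling, had 12.8 and 3.32 TPM of XT transcript in le × ts hybrids, against 0.813 and 0.647 TPM in *X. laevis* embryos, and was the 1 of 6 XT transcripts of this list detected there. 0 of its 7 XL transcripts were detected in te × ls hybrids. Of the other TALE homeobox genes, 1 of 15 XL transcripts tested was lower and 1 higher without overlap in le × ts hybrids than in *X. laevis* embryos (median 0.13), and 2 of 9 XT transcripts were lower and 1 higher in te × ls hybrids than in *X. tropicalis* embryos (median -0.07). *tgif2*, a repressor in TGF-beta signalling, was the only TALE relative detected from the sperm species, with 21.7 and 7.03 TPM of XT transcript in le × ts hybrids, against 0 TPM in *X. laevis* embryos, and 2.23 and 4.71 TPM of an XL transcript in te × ls hybrids, against 0 and 0.215 TPM in *X. tropicalis* embryos. The relatives that lay apart in the egg species were *pbx3*, a partner of Hox proteins, which was higher by 0.39 (SE 0.356) in le × ts hybrids and by 0.64 (SE 0.223) in te × ls hybrids on the log2 scale, *tgif2*, with log2 differences of -0.10 and -0.35, and XT *pknox2*, with -0.29; none was called.

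Of the genes that pattern the embryo from head to tail, most had too little RNA to be tested. Of 6 XL transcripts tested, 1 was lower and 1 higher without overlap in le × ts hybrids than in *X. laevis* embryos (median -0.47), and 3 of 5 XT transcripts tested were lower in te × ls hybrids than in *X. tropicalis* embryos (median -0.81). Detected from the sperm species were 2 of 10 XT transcripts in le × ts hybrids and 1 of 23 XL transcripts in te × ls hybrids. *wnt8a*, a posteriorizing signal of the ventral and lateral mesoderm, had 5.04 and 0.284 TPM of an XL transcript in le × ts hybrids, against 14.5 and 5.44 TPM in *X. laevis* embryos, and 6.63 and 1.75 TPM of XT transcript in le × ts hybrids, against 0 TPM in *X. laevis* embryos. That XL transcript was at 0 TPM in both te × ls libraries, where XL *zic1* and *irx1* were not. In the egg species, XL *hoxb1* had 5.33 and 4.30 TPM in le × ts hybrids, against 3.54 and 2.54 TPM in *X. laevis* embryos. XT *hoxd1* and *cdx2*, a Hox and a Caudal gene of the posterior, had log2 differences of -0.59 (SE 0.235) and -0.51 (SE 0.220) in te × ls hybrids against *X. tropicalis* embryos. *fgf8*, a growth factor that posteriorizes the neural plate, had 4.21 and 1.07 TPM of an XL transcript in te × ls hybrids, against 0 TPM in *X. tropicalis* embryos.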

How the data were processed

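Per the labels and the study's methods, the authors aligned paired-end reads by Bowtie against the transcripts of both species at once, accepted only perfect matches and dropped reads with more than 1 target, and the deposited values are TPM from RSEM, 1 per transcript and library. The submitters' processing notes also name BWA 0.7.10. Species, symbols and identifiers were used as deposited, and all 8 columns were mapped to samples by their labels. Reads identical in both species are lost, and the depth is unknown; relative reads were estimated from the commonest ratio of values between 0.03 and 0.3 TPM.

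Members were *zic* and *irx* transcripts of both species; those of 1 symbol that the rule also finds are not reported here. Each hybrid was compared with the embryos of its egg species by lmFit and eBayes with a mean trend (limma 3.58.1, R 4.3.3) on log2(TPM + 1), for transcripts that reached 1 TPM in no fewer than 2 of the 4 libraries, and Benjamini-Hochberg adjustment over the whole table; the authors' edgeR test needs counts. Fold changes on this scale are understated for low values. Gene levels are sums of TPM over the transcripts of a symbol. The procedure was tested on simulated data with independent noise of equal spread and large changes. That does not show how it performs on these libraries. The members and lists were chosen with earlier results of these data known.

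The rule for named genes gives every member at 1 TPM or more in any library with all its values or their sums, the other members by their highest value, up to 4 transcripts of each related list with the largest differences among those whose groups do not overlap, and the 3 symbols most correlated with each gene. Listed symbols were matched exactly or with a homeolog suffix. Alternatives were other pseudocounts, filters, scalings, a fit of all groups, a block for the replicate number, adjustment within species, other detection limits and each library left out.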

Additional observations from a re-analysis of the deposited data

Results flagged for a closer look

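*irx1* from the sperm species stood at 175% of its mean in *X. laevis* embryos in te × ls hybrids, with both hybrid libraries above both *X. laevis* libraries, while *irx1* from the sperm species stood at 8.68% of its mean in *X. tropicalis* embryos in le × ts hybrids, with both hybrid libraries below both *X. tropicalis* libraries. *zic2* of the egg species stood at 108% of its mean in *X. laevis* embryos in le × ts hybrids and at 95.1% of its mean in *X. tropicalis* embryos in te × ls hybrids, above in both libraries of the first cross and below in both of the other. Each pair was picked out because every library of a cross moved the opposite way to every library of the other; the difference between the crosses was not tested. For *zic2* both percentages lie close to 100%, and limma gave no call for it in either comparison. Of all egg-species symbols, 10.5% of XL were higher without overlap in le × ts hybrids and 10.4% of XT were lower in te × ls hybrids. From the sperm species, 99.5% of XT symbols were lower without overlap in le × ts hybrids, as *irx1* was. In te × ls hybrids 0.0591% of XL symbols were higher.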

How the results depend on the processing

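No log2 difference of a *zic* or *irx* transcript changed sign under the alternatives tried. For the 10 XL members in te × ls hybrids the filter had set the sign beforehand. The other filters, the fit of all groups, the block and the adjustment within species do not alter a log2 difference. These alternatives could therefore not change a sign. Over all transcripts, the number called was 0 for le × ts against *X. laevis* and 0 for te × ls against *X. tropicalis*. With all 4 groups in 1 fit these counts were 4 and 133, with adjustment within each species 81 and 389, and with pseudocounts of 0.1 and 0.5 the second was 230 and 26. Leaving out each replicate gave 0 to 1 and 0 to 30, the highest without *X. laevis* 1 and without *X. tropicalis* 3. Among *zic* and *irx* transcripts in te × ls against *X. tropicalis*, pseudocounts of 0.1 and 0.5 called 8 and 2 (where 44.6% and 5.06% of XL transcripts were called higher), 4 groups in 1 fit 2 (0.767%), adjustment within each species 10 (75.7%), and leaving out each replicate 0 to 2, the highest without *X. tropicalis* 3 (6.01%). All of these are XL members that were higher and, in the comparison's own fits, passed the filter only through the hybrids, so nothing is read from the calls. Without a te × ls library no XL member passed the filter. Detection from the sperm species gave 0 of 7 in le × ts hybrids, 1 at 0.5 TPM and 0 to 4 when each replicate was left out, and 10 of 18 in te × ls hybrids, 3 at 5 TPM. The level of XL *irx1* in te × ls hybrids, 175% of *X. laevis*, was 594% after quantile normalization and 116% to 356% when each replicate was left out. That of XL *zic1*, 74.6%, was 276% and 51.8% to 133%, so it turned to above 100%. XL *irx2*, at 138%, was 829% and 99.1% to 225%. The causes were not tested, apart from the smaller number of libraries or tests that an alternative itself sets.

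By their labels, libraries of different groups with the same number share only that number, and a pairing was not established. With that number as a block, limma called 141 transcripts for le × ts against *X. laevis* and 454 for te × ls against *X. tropicalis*. Of the members, the block called 1 in the first, *zic1* (adjusted p = 0.0263 in limma, between 0.0263 and 1 over the alternatives, where 0.147% of XL transcripts were called lower), and 12 in the other: 4 XT members lower (*zic1*, *irx1*, *irx2* and *zic4*, where 1.06% were) and 8 XL members higher (where 63.6% were), which the filter also selects. Deviations from the group means of libraries with the same number correlated at 0.764 and 0.842 over transcripts in the 2 comparisons. Same-numbered libraries of le × ts and *X. laevis* correlated at 0.979 and 0.964, against 0.909 and 0.943 within the groups. For te × ls and *X. tropicalis* these values were 0.982 and 0.975, against 0.968 and 0.969. The fits without a block do not take this likeness into account. TPM keeps no depth, so low members, near the worth of a few reads in the shallower libraries, are the least certain.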
